A study of Homo sapiens with 16 samples.

Results

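The transcripts examined here were those of 7 genes at the core of the Hedgehog pathway, namely the transcription factor genes GLI1, GLI2 and GLI3, the receptor gene PTCH1, the signal transducer SMO, the ligand-binding inhibitor HHIP and the cytoplasmic GLI inhibitor SUFU. They were taken by gene symbol for their known role in the pathway, from 40663 symbols in the expression table, and all 7 had a row. The set was picked with earlier results of these data known, so that its counts of calls are a description of these genes and not of an unselected sample. The data were 16 bulk RNA-seq libraries of Ccd18-Co, a human colon fibroblast line, with 4 libraries in each of 4 groups. Cells of 3 groups had been exposed 3 times to a cytokine mix of IL-1B (0.1 ng/ml), IL-17A, OSM and TNF (10 ng/ml for each of these), with each pulse lasting 72 h in serum-free medium before a 96 h recovery. They then rested for 1 week and were given DMSO (the vehicle group), 250 nM belinostat or 10 µM GSK-J4 for 5 days, and RNA was collected 2 weeks later. The remaining group received no cytokines (the unstimulated group). Its sample titles name DMSO whereas its count columns carry "none", so that its exposure to DMSO rests on the titles. Doses and group sizes are those of the labels. The text of the study gives other compound concentrations and another number of replicates for experiments of this kind. For IL-1B it gives the concentration of the labels in a figure legend and a lower one in its methods. Belinostat inhibits histone deacetylases, and GSK-J4 inhibits demethylases that act on lysine 27 of histone H3. All groups were one cell line used as a model of intestinal stroma, in culture without epithelial or immune cells, and nothing in the labels says that the 4 samples of a group were set up as independent experiments, so that p-values measure the spread between these samples, which may be technical.

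Hedgehog ligands are secreted proteins that bind PTCH1 on the receiving cell and so relieve its inhibition of SMO, which signals at the primary cilium to the GLI factors. GLI2 is chiefly an activator once it is released from SUFU, GLI3 is chiefly processed to a repressor when no ligand is bound, and GLI1 is an activator that is itself transcribed in response to the signal. GLI1, PTCH1 and HHIP are standard target genes used to read out pathway activity, and PTCH1 and HHIP also restrain it. In the intestine the ligands come from the epithelium and the responding cells are the fibroblasts and smooth muscle of the underlying stroma.

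The GLI factors share a recognition sequence, GACCACCCA, which was searched on both strands of the RefSeq promoter windows (GRCh38.p14, 250 bases before to 50 after each annotated start). It was present in 83 of 35116 windows (0.236%). Windows matched 5 of the 7 genes, GLI2, PTCH1, HHIP, SMO and SUFU, with 10 windows in all, and 1 of these, at a PTCH1 start, held the motif. GLI1 and GLI3 had no window in that table. The 250 bases before this PTCH1 start are shown because they hold that match in a gene used as a pathway readout. They lie at chr9:95509267-95509516 on the minus strand, within the PTCH1 gene (chromosome 9, 95442980 to 95517057) and outside any GENCODE v44 exon. The capitals mark the match, TGGGTGGTC, which is the motif on the opposite strand and begins at position -172 from the start.
PTCH1 upstream: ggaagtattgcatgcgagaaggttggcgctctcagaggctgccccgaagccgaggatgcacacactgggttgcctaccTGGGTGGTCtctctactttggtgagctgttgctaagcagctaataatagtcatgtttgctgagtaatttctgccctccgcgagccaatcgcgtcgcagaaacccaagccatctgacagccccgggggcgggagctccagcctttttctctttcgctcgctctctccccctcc
The match describes these letters only and says nothing of GLI binding in these cells. Among 64 windows of the other pathway genes described further on, 0 held the motif.

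The libraries held between 14.4 and 19.5 M estimated counts, the shallowest being belinostat replicate 18. Belinostat replicate 17 stood apart from its group, with a median correlation to the other belinostat libraries of 0.983 against 0.988 to 0.993 within the other groups and for the other belinostat libraries, and results are given without it where it mattered. Of 9 fibroblast markers, 9 reached a mean normalized count of 10, and 0 of 4 epithelial and 0 of 3 glial markers did. Of 4 endothelial and 4 immune markers, 1 each reached that level (VWF and CD68). Summed fibroblast marker counts were 489100 to 515620 in unstimulated and 501970 to 536280 in vehicle libraries. They were 431600 to 515320 in belinostat and 538880 to 574820 in GSK-J4 libraries. Against vehicle, COL1A1 (-0.29) and PDGFRA (-0.25) were called as lower with belinostat in DESeq2. COL1A2 (0.22) and COL3A1 (0.22) were called as higher with GSK-J4. In each of these comparisons the remaining fibroblast markers were not called. Summed counts of 4 smooth muscle markers were 6933 to 11549 in unstimulated, 8528 to 9631 in vehicle, 4866 to 7132 in belinostat and 13975 to 14302 in GSK-J4 libraries, 3 of the 4 markers reaching a mean of 10, whereas DES stayed near 0. Summed counts of 6 proliferation markers were 1056 to 1276 in unstimulated, 1194 to 1457 in vehicle, 1152 to 1327 in belinostat and 1413 to 1532 in GSK-J4 libraries. The smooth muscle sums of the belinostat and GSK-J4 libraries did not overlap those of vehicle, although belinostat overlapped unstimulated. With belinostat only ACTG2 was called against vehicle (log2 fold change -0.63, adjusted p = 1.91e-05 in DESeq2). MYH11 (-0.22) and CNN1 (-0.14) were not called. With GSK-J4 all of MYH11 (1.11), ACTG2 (0.50) and CNN1 (0.71) were called as higher than vehicle. The proliferation sums of each compound overlapped those of vehicle, and no proliferation marker was called between belinostat and vehicle. With GSK-J4, MKI67 (1.42) and TOP2A (0.78) were called as higher than vehicle. CCNB1 (0.40), PCNA (0.08), MCM2 (0.28) and CDK1, which went the other way (-0.22), were not called. The part of these sums in the results for the compounds below was not tested.

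Belinostat-treated cells carried less GLI3 and more GLI2 RNA than vehicle-treated cells. GLI3 fell by 43.9%, and GLI2 rose by 27.8%. GLI1, PTCH1, SMO and SUFU did not pass the test, and HHIP was barely detected. Of 6 genes with a test, 2 were called (DESeq2, adjusted p under 0.05), where 6.26% of 14209 tested genes were called in this comparison, 3.12% as higher and 3.13% as lower. In bulk RNA fewer cells of a type and less RNA per cell cannot be told apart.

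GLI3 (chromosome 7, 41960949 to 42264100, minus strand, hg38), the chief repressor of the family, had 1316, 1188, 1162 and 1210 normalized counts in the vehicle libraries. The belinostat libraries had 593, 731, 712 and 701, all below every vehicle library and below every library of the other groups. The mean was 684 ± 62.2 (SD, n = 4) with belinostat against 1219 ± 67.9 (SD, n = 4) with vehicle, a log2 fold change of -0.83 (SE 0.11, 95% interval -1.05 to -0.61, adjusted p = 3.61e-11 in DESeq2). The share of tested genes whose belinostat libraries all lay below the vehicle libraries was 5.98%, and 5.38% lay above them. The call held in each of 14 alternative settings, with adjusted p from 8.34e-21 to 0.000168, and without belinostat replicate 17 the difference was -0.77.

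The level of GLI3 in unstimulated cells was 855, 976, 1250 and 1107 normalized counts, and in GSK-J4-treated cells 1076, 1305, 1431 and 1382. The 3 higher groups overlapped, so that only the belinostat group stood below its neighbours in the order belinostat, unstimulated, vehicle and GSK-J4. Against unstimulated cells the belinostat group was lower by -0.62 (SE 0.11, adjusted p = 3.18e-06), also without overlap, which 5.7% of tested genes showed in that direction. Relative to cells that had never met the cytokines, GLI3 thus fell by 34.7%. This comparison and that with vehicle share the belinostat libraries.

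GLI2 (chromosome 2, 120735623 to 120992653, plus strand), the chief activator, had 1440, 1516, 1601 and 1432 normalized counts in vehicle and 1576, 1921, 1917 and 2240 in belinostat libraries. The groups overlapped at 1 point, since belinostat replicate 17 lay below vehicle replicate 15. The means were 1497 ± 78.9 and 1913 ± 271 (SD, n = 4 each), and the difference was 0.35 (SE 0.10, 95% interval 0.15 to 0.56, adjusted p = 0.0160). The call was not kept without vehicle replicate 13 (0.33, adjusted p = 0.0770), vehicle replicate 16 (0.33, 0.0745), belinostat replicate 18 (0.35, 0.0509) or belinostat replicate 20 (0.27, 0.139). Without belinostat replicate 17 the difference was 0.44 (adjusted p = 0.000213), and adjusted p ranged from 0.000213 to 0.139 over the alternatives. Unstimulated libraries had 1360, 1511, 1771 and 1805 normalized counts of GLI2, a range that reached into that of the belinostat libraries, and belinostat against unstimulated cells gave 0.25 (SE 0.10, adjusted p = 0.122).

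GLI1 (chromosome 12, 57459785 to 57472268, plus strand), at once an activator and a target gene, was far less abundant, with 39, 50.8, 41 and 24.9 normalized counts in vehicle libraries. Belinostat libraries had 71.6, 65.9, 48.5 and 67.5, of which 3 lay above all vehicle libraries. The log2 fold change of 0.71 (SE 0.25, 95% interval 0.21 to 1.20) did not pass the test (adjusted p = 0.0687). It passed without vehicle replicate 14 (0.86, adjusted p = 0.0352) or belinostat replicate 19 (0.81, 0.0403), and adjusted p reached 0.287 elsewhere. Unstimulated libraries had 28, 46, 39.9 and 44.9, all below the belinostat libraries, for a difference of 0.68 (SE 0.25, adjusted p = 0.0632). Such a position above unstimulated libraries was held by 6.62% of tested genes.

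**Figure D1:**
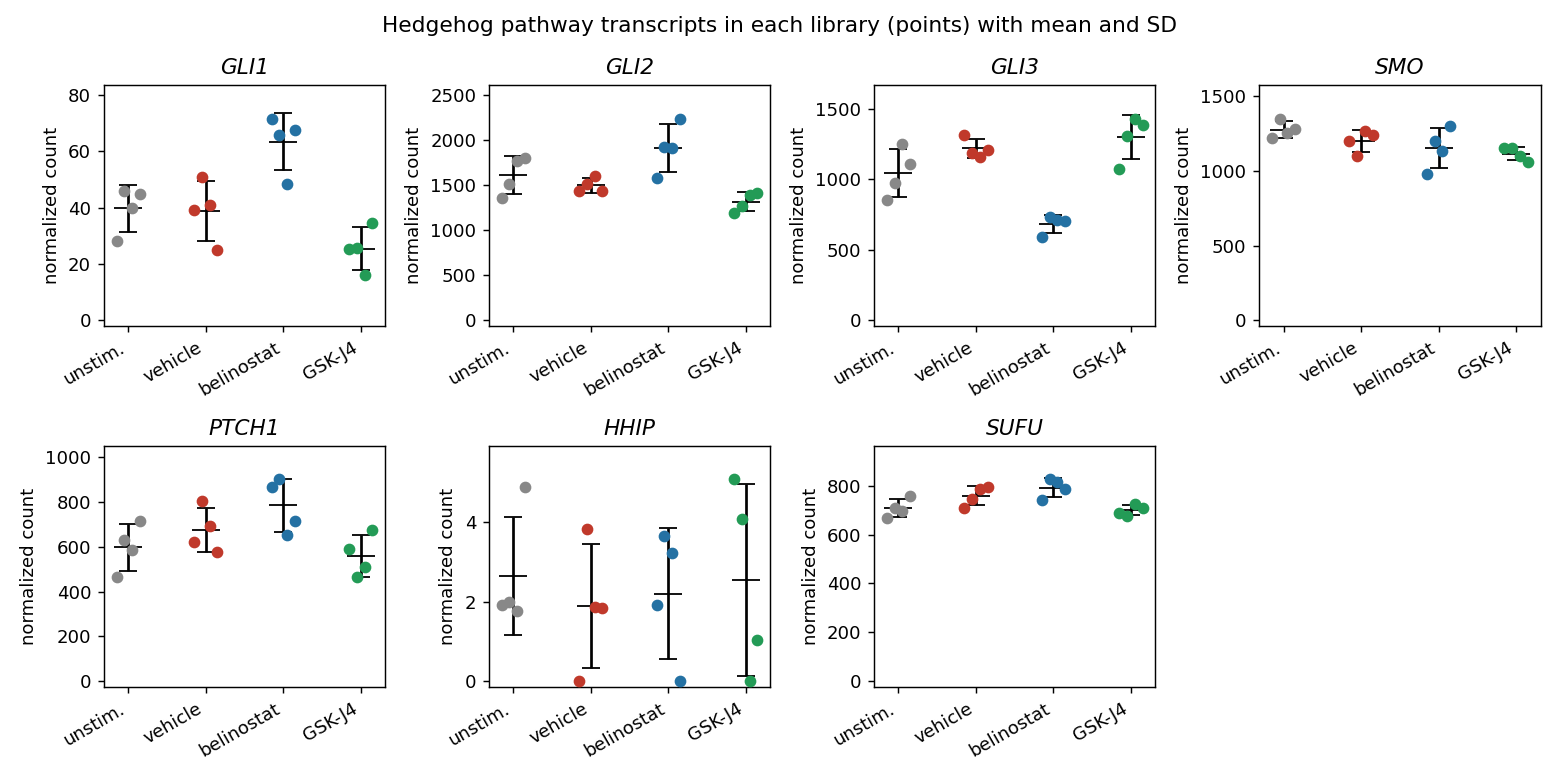
Normalized counts (vertical axes, from 0) of each Hedgehog pathway gene in every library, as points, with the group mean and SD as black bars, for unstimulated, vehicle, belinostat and GSK-J4 groups. The 4 belinostat libraries sit between 593 and 731 for GLI3, below all other libraries, and HHIP stays at or below 5.09 in every library.

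Among the receptor, transducer and inhibitors, no transcript passed the test of belinostat against vehicle. PTCH1, the ligand receptor and a target gene, had 622, 805, 695 and 576 normalized counts in vehicle and 868, 901, 653 and 715 in belinostat libraries, and the groups overlapped. Its difference was 0.22 (SE 0.15, 95% interval -0.07 to 0.51, adjusted p = 0.545). Of its exon bases, 4.11% overlap a lncRNA on the opposite strand, whose reads could not be told apart unless strand was used in the counting.

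SMO (chromosome 7, 129188633 to 129213545, plus strand), the membrane protein that PTCH1 inhibits, had 1200, 1099, 1265 and 1242 normalized counts in vehicle and 977, 1197, 1130 and 1297 in belinostat libraries. The difference was -0.06 (SE 0.08, 95% interval -0.21 to 0.09), and the lowest of the 4 values was again from replicate 17, without which it was 0.0079. SUFU (chromosome 10, 102503972 to 102633535, plus strand), which holds GLI proteins in the cytoplasm, had 711 to 794 in vehicle and 741 to 827 in belinostat libraries, a difference of 0.06 (SE 0.06, 95% interval -0.06 to 0.18). Both intervals leave room for modest changes in either direction and exclude changes as large as that of GLI3.

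HHIP (chromosome 4, 144646156 to 144745271, plus strand), a membrane decoy for the ligands and a target gene, was at 0 to 5.03 estimated counts in any library. Normalized counts were 1.93, 2.00, 1.78 and 4.88 in unstimulated libraries and 0, 3.83, 1.86 and 1.84 in vehicle libraries. They were 1.91, 3.66, 3.24 and 0 in belinostat libraries and 5.09, 4.10, 0 and 1.05 in GSK-J4 libraries. No difference between groups was detectable at this depth, and no fold is given. An antisense gene, HHIP-AS1, overlaps 6.81% of its exon bases.

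With GSK-J4 no gene of the set was called against vehicle. Of 6 genes tested, 0 passed in DESeq2, where 1.92% of 13197 genes did, and 1 had an unadjusted p under 0.05 (GLI1, 0.0256). By edgeR 0 were called as well. GLI1 had 25.4, 25.6, 16.3 and 34.6 normalized counts in GSK-J4 libraries, all below the 3 highest vehicle libraries and 3 of them above the lowest, and the difference was -0.61 (SE 0.27, 95% interval -1.15 to -0.07, adjusted p = 0.369). GLI2 had 1187, 1272, 1390 and 1412, all below the vehicle libraries, with a difference of -0.19 (SE 0.11, 95% interval -0.39 to 0.02, adjusted p = 0.578). Such a position below vehicle without overlap was held by 4.52% of all tested genes.

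PTCH1 had 590, 466, 508 and 676 normalized counts in GSK-J4 libraries, for a difference of -0.27 (SE 0.15, 95% interval -0.56 to 0.02). SMO had 1149, 1149, 1101 and 1058 (-0.11, SE 0.08, 95% interval -0.26 to 0.04). SUFU had 691, 678, 726 and 711 (-0.11, SE 0.06, 95% interval -0.23 to 0.0047). GLI3 stood at 0.09 (SE 0.11, 95% interval -0.13 to 0.31, adjusted p = 0.899), an interval that excludes a fall of the size seen with belinostat. The median difference over the 6 genes was -0.15 with GSK-J4 and 0.14 with belinostat. Over all tested genes the median was -0.00249 and 0.00288, which scaling keeps near 0, and the median absolute difference 0.074 and 0.0927. GLI3 went against the median of the 6 genes in both comparisons, and SMO did so with belinostat. Both comparisons share the vehicle libraries.

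The compounds were compared directly with each other, each at its single dose, which differed. The vehicle libraries are in neither group of this contrast and enter it only through the common fit. Belinostat-treated cells had more GLI1, GLI2, PTCH1 and SUFU and less GLI3 RNA than GSK-J4-treated cells. Of 6 genes tested, 5 were called, 4 as higher and 1 as lower, where 12.2% of 14717 tested genes were called, 6.18% as higher and 6.01% as lower. GLI1 was 2.50-fold higher (95% interval 1.74 to 3.59, log2 fold change 1.32, SE 0.27, adjusted p = 2.49e-05). GLI2 was higher by 0.54 (SE 0.10, adjusted p = 9.02e-06) and GLI3 lower by -0.92 (SE 0.11, adjusted p = 2.80e-14). For all 3 GLI genes the libraries did not overlap, and their calls held in all 14 alternatives. No overlap was seen for 8.38% of all tested genes in the higher and 8.63% in the lower direction.

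PTCH1 was higher by 0.49 with belinostat than with GSK-J4 (SE 0.15, adjusted p = 0.0130), although 1 of the belinostat libraries, replicate 19 at 653, lay below GSK-J4 replicate 24 at 676. The PTCH1 call was not kept without belinostat replicate 18 (0.41), GSK-J4 replicate 22 (0.41) or GSK-J4 replicate 23 (0.44). Its adjusted p lay between 0.00279 and 0.0868 across all alternatives. SUFU was higher by 0.17 (SE 0.06, adjusted p = 0.0394) with no overlap, a change of 12.9%, and its call was not kept in 10 of 14 alternatives, which included leaving out belinostat replicate 18, 19 or 20 or any 1 of the GSK-J4 replicates 21 to 24 (adjusted p 0.0133 to 0.145 over all). SMO did not pass (0.04, SE 0.08, 95% interval -0.11 to 0.19, adjusted p = 0.825).

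**Figure D2:**
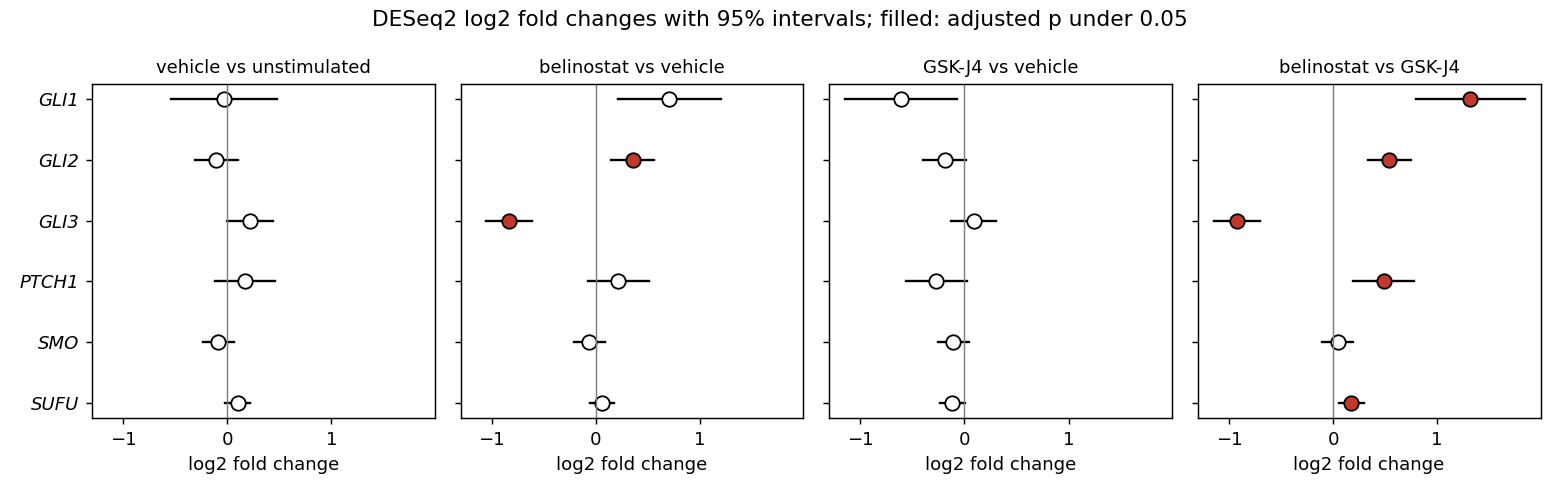
DESeq2 log2 fold changes (horizontal axes) of 6 Hedgehog pathway genes with 95% intervals as lines, in 4 comparisons, with filled points where adjusted p was under 0.05. GLI2 and GLI3 are filled in belinostat against vehicle, 5 genes are filled in belinostat against GSK-J4, and 0 are filled in the other panels.

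At the time of collection no called difference in these genes separated cytokine-pulsed vehicle cells from unstimulated cells. Vehicle against unstimulated cells gave 0 of 6 calls, where 1.74% of 16240 tested genes were called, 1 gene (GLI3, 0.0482) at an unadjusted p under 0.05 and 0 by edgeR. GLI3 was 0.22 higher (SE 0.11, 95% interval 0.0018 to 0.44, adjusted p = 0.553), with 3 of the unstimulated libraries below all vehicle libraries and 1 within their range. GLI1 differed by -0.03 (SE 0.26, 95% interval -0.54 to 0.48) and GLI2 by -0.11 (SE 0.10, 95% interval -0.31 to 0.10). PTCH1 had 463, 629, 587 and 716 normalized counts in unstimulated libraries, and its difference of 0.17 (SE 0.15, 95% interval -0.12 to 0.46) was within the spread. SMO, at 1222 to 1349 in unstimulated libraries, differed by -0.08 (SE 0.08), and SUFU, at 669 to 757, by 0.10 (SE 0.06).

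Against unstimulated cells, belinostat-treated cells gave 1 call among 6 tested genes (GLI3, above), where 10.3% of 14209 genes were called, and PTCH1 differed by 0.39 (SE 0.15, adjusted p = 0.0734) and SUFU by 0.16 (SE 0.06, adjusted p = 0.0713). Single libraries moved this count between 1 and 3. Without belinostat replicate 19, GLI1 (0.79, adjusted p = 0.0391) and PTCH1 (0.47, 0.0335) were called. Without belinostat replicate 17, GLI2 (0.33, adjusted p = 0.00969) and SUFU (0.19, 0.0318) were called, and without unstimulated replicate 4, PTCH1 (0.49, 0.0269) and SUFU (0.19, 0.0402). GSK-J4-treated cells gave 0 calls among 7 tested genes, where 5.55% of 16747 genes were called, although 4 had an unadjusted p under 0.05, and edgeR called 0. In that comparison GLI2 (-0.29, SE 0.11) and GLI3 (0.31, SE 0.11) both had an adjusted p of 0.0774, and GLI1 was at -0.64 (adjusted p = 0.191). GLI2 was called without unstimulated replicate 1 (-0.37, adjusted p = 0.0104), and GLI3 without unstimulated replicate 3 (0.41, 0.00566) or GSK-J4 replicate 21 (0.39, 0.0121). SMO, at 1058 to 1149 in GSK-J4 against 1222 to 1349 in unstimulated libraries, did not overlap and was not called. The share of all genes with such a position was not counted there. Over 14 alternatives its difference was -0.21 to -0.17 (adjusted p 0.0308 to 0.361), and it was called in 1.

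To compare levels between genes, normalized counts were divided by the length in kb of the canonical GENCODE v44 transcript. Counts are per gene symbol, and the isoforms present in these cells were not examined. The order between genes and the GLI ratios and shares below depend on this choice of length. In vehicle cells the order was SMO (302 ± 18.5 normalized counts per kb), GLI2 (210 ± 11.1), SUFU (151 ± 7.65), GLI3 (145 ± 8.07), PTCH1 (77.9 ± 11.5), GLI1 (9.80 ± 2.69) and HHIP (0.190 ± 0.158; SD, n = 4 throughout). SUFU and GLI3, which were neighbours in this order, overlapped. In belinostat cells SMO (289 ± 33.8) and GLI2 (268 ± 38.0) overlapped, and GLI3 (81.4 ± 7.41) came below PTCH1 (90.5 ± 13.8), also with overlap. In GSK-J4 cells GLI3 (154 ± 18.7) came above SUFU (140 ± 4.28), with overlapping libraries, and in unstimulated cells the order was that of vehicle.

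The balance of the 3 GLI transcripts was examined within each library as a description, a measure chosen after the values of these genes were seen. Per kb, GLI3 stood at 0.694 ± 0.069 of the level of GLI2 in vehicle cells (SD, n = 4), with libraries from 0.616 to 0.776. It stood at 0.306 ± 0.027 in belinostat cells, from 0.266 to 0.323. The ratio was 0.836 ± 0.049 in GSK-J4 cells, from 0.770 to 0.874, and 0.551 ± 0.034 in unstimulated cells, from 0.521 to 0.599. The ranges of the belinostat, unstimulated and vehicle groups did not touch, and the lowest GSK-J4 library lay below the highest vehicle library. The gap between unstimulated and vehicle was narrow (0.599 against 0.616), and neither GLI2 nor GLI3 was called between these groups. How often the ratio of other gene pairs separates the groups was not examined. GLI3 made up 39.8% of the summed GLI level in vehicle, 22.4% in belinostat, 44.7% in GSK-J4 and 34.5% in unstimulated cells on average. GLI1 never exceeded 5.83% in a library.

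**Figure D3:**
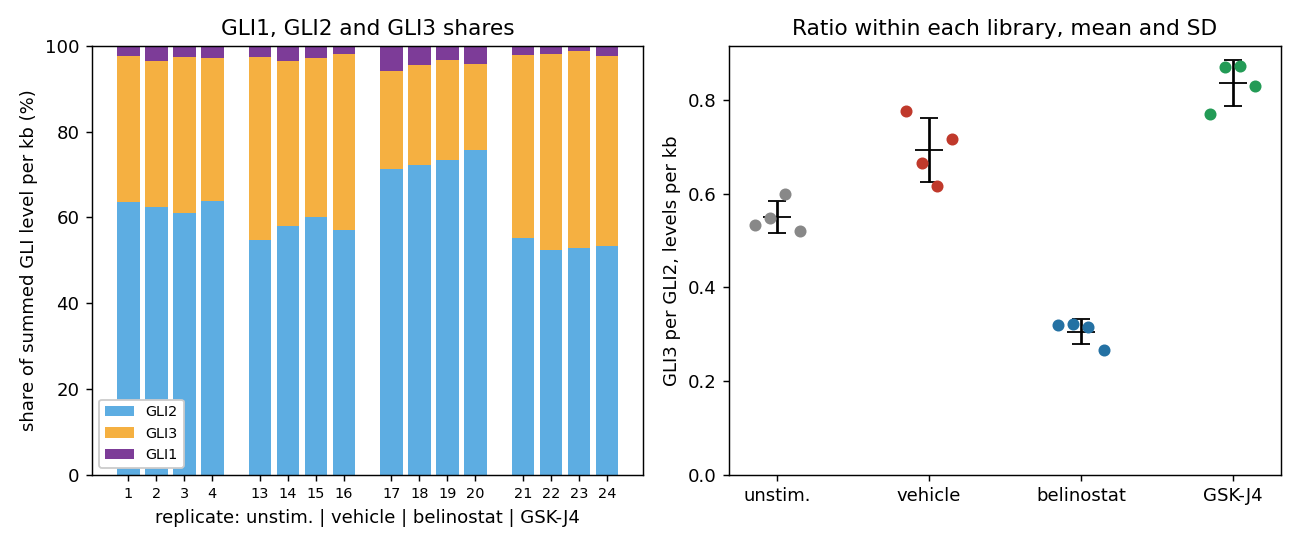
Left, share of GLI2, GLI3 and GLI1 in the summed GLI level per kb (vertical axis, percent) in each library, numbered by replicate and ordered as unstimulated, vehicle, belinostat and GSK-J4. Right, the level of GLI3 per GLI2 in each library with mean and SD, which lies between 0.266 and 0.323 with belinostat and above 0.5 in all other libraries.

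A list of 48 further pathway genes, of which 46 had a row, was followed by role. DHH and FOXF2 were not analysed here. The ligands SHH and IHH ranged from 0 to 2.03 normalized counts in any library, and SHH was at 0 in all unstimulated libraries, so that no fold is given. Of the 39 or 40 list genes tested, 7.5% were called in vehicle against unstimulated cells, 12.8% in belinostat against vehicle, 2.56% in GSK-J4 against vehicle and 15.4% in belinostat against GSK-J4, beside 1.74%, 6.26%, 1.92% and 12.2% of all tested genes. Against unstimulated cells 23.1% of the list genes were called with belinostat and 22.5% with GSK-J4, beside 10.3% and 5.55% of all tested genes. Their median difference stood at 0.0027 in belinostat against vehicle.

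Among target genes of the list, CCND2, a D-type cyclin, showed the largest rise with belinostat among the list genes. It went from 440 ± 40.6 normalized counts in vehicle (404 to 489) to 871 ± 92.2 in belinostat cells (763 to 962), without overlap, a difference of 0.98 (SE 0.10, adjusted p = 3.40e-20). It was 568 ± 54.4 in unstimulated and 368 ± 34.3 in GSK-J4 cells (SD, n = 4), and belinostat against GSK-J4 gave 1.24 (SE 0.10, adjusted p = 1.02e-31). Vehicle against unstimulated gave -0.37 (SE 0.10, adjusted p = 0.0192), a call not kept by edgeR (adjusted p = 0.0581) or when 1 of 4 libraries was left out, namely unstimulated replicate 3 (0.101), unstimulated replicate 4 (0.109), vehicle replicate 14 (0.119) and vehicle replicate 15 (0.131). CCND1, the related cyclin, was 0.35 higher in vehicle than in unstimulated cells (SE 0.06, adjusted p = 1.59e-05).

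BMP4, a secreted morphogen, was lower with belinostat by -0.46 (SE 0.15, adjusted p = 0.0399), with libraries from 1766 (replicate 17) to 3557 against 3811 to 4202 in vehicle. Without replicate 17 the difference was -0.27 (adjusted p = 0.0190). Its call was not kept in 8 of 14 alternatives, among them edgeR (adjusted p = 0.104), the fit to these groups alone (0.300) and leaving out vehicle replicate 13 (0.127), 14 (0.105), 15 (0.0945) or 16 (0.0635) or belinostat replicate 20 (0.0515). The stromal forkhead factors FOXF1 and FOXL1, which are Hedgehog targets in the gut, were not called in any of the 6 comparisons. FOXF1 stood at group means of 6075 to 6732 normalized counts and FOXL1 at 308 to 349, both highest with belinostat. Against vehicle FOXF1 differed by 0.15 (SE 0.07, adjusted p = 0.220), with overlap. FOXL1 differed by 0.18 (SE 0.10, adjusted p = 0.340), without overlap, as 5.38% of tested genes did in that direction. The FOXL1 libraries of belinostat lay within the range of the unstimulated ones.

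Of the co-receptors, which present ligand to PTCH1, BOC had group means of 3266 to 3841 normalized counts, GAS1 58.9 to 112 and CDON 87.3 to 194, values not scaled to length and so not compared between genes. CDON was 0.65 higher with GSK-J4 than with vehicle (194 ± 24.6 against 123 ± 12.3 normalized counts, SE 0.14, adjusted p = 0.000667) and lower with belinostat than with GSK-J4 by -0.92 (SE 0.14, adjusted p = 1.11e-08). Both calls held in all 14 alternatives. CDON was 0.50 higher in vehicle than in unstimulated cells (SE 0.15, adjusted p = 0.0469), but this call was not kept in 10 of 14 alternatives, which included edgeR (adjusted p = 0.0866) and leaving out unstimulated replicate 2, 3 or 4 or any 1 of the vehicle replicates 13 to 16 (0.0633 to 0.253).

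Of 20 genes of the cilium and of GLI processing, 2 were higher with belinostat than with vehicle and 0 were lower, beside 3.12% and 3.13% of all tested genes. KIF7, a ciliary kinesin that regulates the GLI proteins, was higher by 0.20 (SE 0.06, adjusted p = 0.0166), and KIF3A, a kinesin subunit needed to build the cilium, by 0.27 (SE 0.08, adjusted p = 0.0115). The KIF7 call was not kept without vehicle replicate 15 (0.0653) or 16 (0.0772) or belinostat replicate 18 (0.0644) or 20 (0.118), and the KIF3A call was not kept without vehicle replicate 13 (0.0697) or 15 (0.0567) or belinostat replicate 18 (0.0892), these values being adjusted p, and neither was kept in the fit of the belinostat and vehicle groups alone (0.0645 and 0.0570). In belinostat against GSK-J4, 3 of the 20 were higher, beside 6.18% of all tested genes, namely KIF7 (0.23, SE 0.06), KIF3A (0.27, SE 0.08) and BTRC (0.17, SE 0.06, adjusted p = 0.0389), the last a ubiquitin ligase subunit that marks GLI proteins for processing. The BTRC call was not kept in 8 of 14 alternatives, among them leaving out belinostat replicate 17 (0.0977), 18 (0.0888) or 20 (0.144) or GSK-J4 replicate 21 (0.144), 22 (0.0776) or 24 (0.129).

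Among zinc finger relatives of the GLI factors, GLIS2 was lower with belinostat than with vehicle by -0.25 (SE 0.07, adjusted p = 0.00731), with 747 to 913 against 981 to 1068 normalized counts. GLIS1 was lower with belinostat than with GSK-J4 by -1.13 (SE 0.26, adjusted p = 0.000397), with 23.5 ± 6.17 against 52.1 ± 12.6 normalized counts (SD, n = 4). Both calls held in all 14 alternatives. GLIS3 went the other way with belinostat against vehicle and was not called (0.10, SE 0.08, adjusted p = 0.637).

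Against unstimulated cells, 6 list genes were higher and 3 lower with belinostat, and 7 were higher and 2 lower with GSK-J4. With belinostat BOC was lower by -0.23 (SE 0.06, adjusted p = 0.00128) and GLIS2 by -0.35 (SE 0.07, adjusted p = 1.90e-05), and CCND2 was higher by 0.61 (SE 0.10, adjusted p = 3.85e-08). GSK3B, a kinase that acts in GLI processing, was higher by 0.26 (SE 0.06, adjusted p = 0.00160). These 4 calls held in all 14 alternatives. So did those of GLIS3 (0.33), BTRC (0.26) and CCND1 (0.29), all higher with belinostat. The calls of KIF3A (0.26) and BMP4 (-0.48) were not kept in some alternatives. With GSK-J4 CDON was higher by 1.15 (SE 0.15, adjusted p = 1.21e-12) and CCND2 lower by -0.63 (SE 0.10, adjusted p = 1.47e-07), both in all 14 alternatives. GAS1 was higher by 0.93 (SE 0.27, adjusted p = 0.0143), a call not kept without unstimulated replicate 1 (adjusted p = 0.0515), unstimulated replicate 2 (0.0536) or GSK-J4 replicate 22 (0.117). Without GSK-J4 replicate 22 the count with GSK-J4 was 3 in place of 9. These comparisons share the unstimulated libraries.

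**Figure D4:**
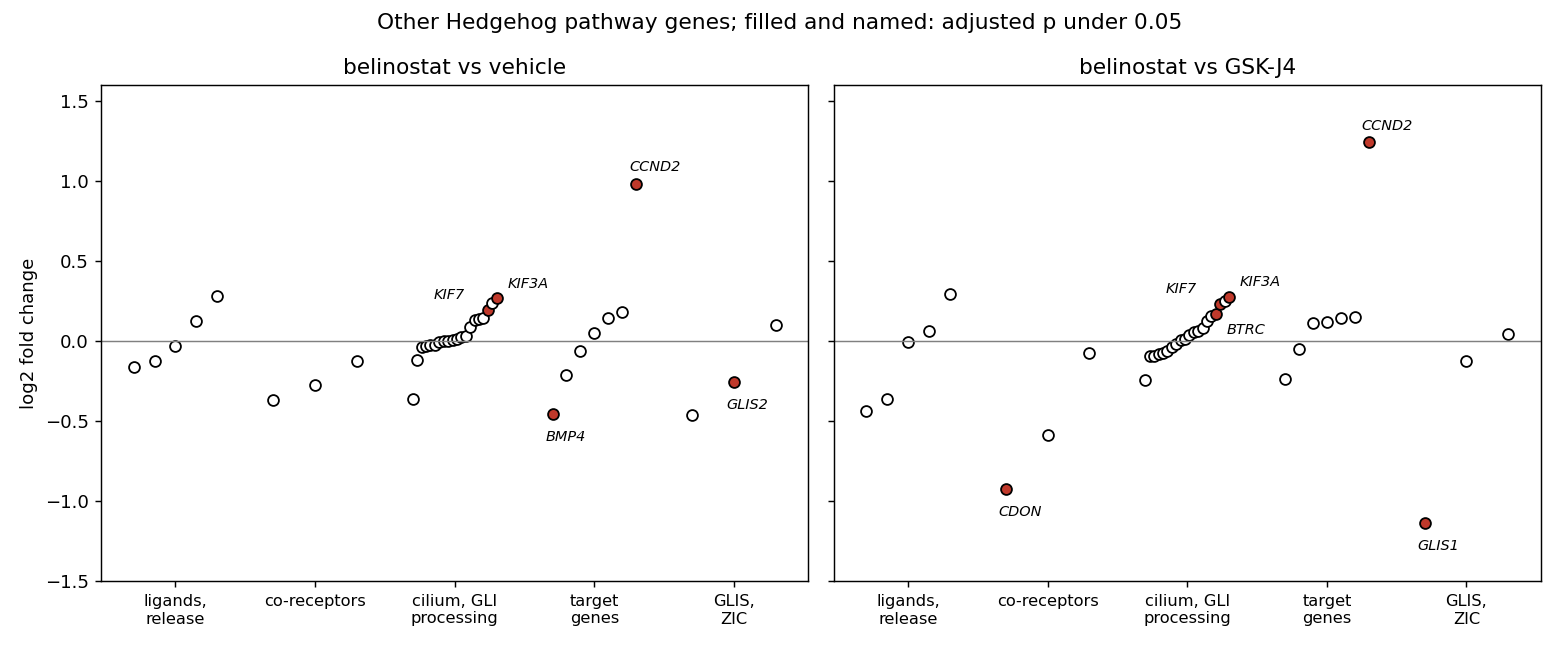
DESeq2 log2 fold changes (vertical axis) of the tested genes among the further pathway genes (1 gene not shown), grouped by role, in belinostat against vehicle and in belinostat against GSK-J4, with filled and named points where adjusted p was under 0.05. Most points lie near 0, CCND2 reaches 0.98 and 1.24, and CDON and GLIS1 lie at -0.92 and -1.13 in the second panel.

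The genes whose profile over the 16 libraries was nearest to that of GLI3, by root mean square distance on the centred log2 scale among 11741 genes, were COL6A1 (0.151), TNFRSF19 (0.151) and NKD2 (0.180), where the median over genes was 0.407 and the spread of GLI3 itself 0.388. COL6A1, a collagen VI chain, had group means of 50300 normalized counts in unstimulated, 52081 in vehicle, 32340 in belinostat and 67115 in GSK-J4 cells. NKD2, an inhibitor of Wnt signalling, had 1162, 1410, 884 and 1365 in the same order. TNFRSF19, a TNF receptor family member, had 1584, 1612, 1088 and 1923.

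For GLI2 the nearest were SEMA6A (0.0889), NBPF3 (0.102) and TMOD2 (0.102), where the median was 0.268 and the spread of GLI2 itself 0.236. SEMA6A, a transmembrane semaphorin, had group means of 1897, 1747, 2463 and 1564 in the same order, and TMOD2, a tropomodulin, 925, 872, 1047 and 785. NBPF3 belongs to a family of close paralogs, so its counts are uncertain.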

How the data were processed

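RNA of Ccd18-Co cells was sequenced on a NextSeq500 after preparation with a NEBNext Ultra II kit, whose strand setting is not given in the sources used here. The authors deposited estimated counts per gene symbol. The submitters' processing notes name kallisto 0.48.0, FastQC 0.11.9, MultiQC 1.14 and hg38. Counts were rounded (28% of values had decimals), and 0 columns were left unused. Columns of the unstimulated group, which carry "none" where the titles carry dmso, were matched by number. All 16 libraries entered 1 DESeq2 (1.42.0, R 4.3.3) fit with group as the only term, median-of-ratios size factors and unshrunken fold changes. Wald p-values were adjusted by the Benjamini-Hochberg method over all genes left by independent filtering, and adjusted p under 0.05 was called. Normalized counts are counts divided by the size factors. Scripts were tested on simulated data. Alternatives were edgeR (4.0.16) quasi-likelihood tests, total-count scaling, a minimum of 10 counts in 4 libraries, no independent filtering, 2 surrogate variables (sva 3.50.0), the compared groups alone, and leaving out each replicate. These were applied to the list counts against unstimulated cells for the compounds only after seeing the data.

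Named genes were all 7 pathway members, list genes called in any of the first 4 comparisons (up to 15 per comparison), SHH, IHH and DHH, and for each member with a mean of at least 50 called in the first 3, the 3 genes (mean at least 50) with the nearest profile. FOXF1, FOXL1, BOC, GAS1, GSK3B and GLIS3 were named in addition, after their values were seen. The members and lists were chosen with earlier results of these data known. The values of 1 list gene are not reported here. Gene positions and lengths came from GENCODE v44 and promoter sequences from RefSeq.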

Additional observations from a re-analysis of the deposited data

Results flagged for a closer look

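In the unstimulated group, replicate 4 had 4.88 normalized counts of HHIP while the nearest of the other libraries had 2.00, a gap that Dixon's test marks as an outlier in a group of 4. It was the only one marked among 28 combinations of gene and group, and chance marks about 1 in 20. At these levels the library held only a few estimated counts of HHIP. The gene was tested in 1 comparison that uses this library, GSK-J4 against unstimulated, and was not called (adjusted p = 0.994).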

How the results depend on the processing

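No paired analysis was possible because the groups share no replicate numbers. Of 504 alternative values of 36 results, 465 kept their direction and side of the threshold. With 2 surrogate variables, 6 list genes were called in vehicle against unstimulated (3 in the fit of all libraries), 10 in belinostat against GSK-J4 (6) and 2 of the core genes in GSK-J4 against unstimulated (0). By edgeR, 1 list gene was called in vehicle against unstimulated. With only the compared groups, 2 list genes were called in belinostat against vehicle (5), 2 in GSK-J4 against vehicle (1) and 1 core gene in GSK-J4 against unstimulated (0). Leaving out 1 library gave 1 to 3 core genes in belinostat against vehicle (2), 3 to 5 in belinostat against GSK-J4 (5), 1 to 3 in belinostat against unstimulated (1) and 0 to 1 in GSK-J4 against unstimulated. It gave 1 to 3 list genes in vehicle against unstimulated, 2 to 7 in belinostat against vehicle 5 to 8 in belinostat against GSK-J4, 7 to 10 in belinostat against unstimulated (9) and 3 to 9 in GSK-J4 against unstimulated (9), the last pair being comparisons whose alternatives were chosen after seeing the data. The cause was not tested. Without belinostat replicate 17 there were 2 core and 7 list calls against vehicle.

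Only uncalled differences changed sign when 1 library was left out. GLI1 in vehicle against unstimulated ran from -0.18 to 0.13, SMO from -0.13 to 0.0079 in belinostat against vehicle and from -0.020 to 0.12 in belinostat against GSK-J4, and PTCH1 from -0.20 to 0.00069 and SUFU from -0.040 to 0.019 in GSK-J4 against unstimulated.

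Over all genes, edgeR called 166 in vehicle against unstimulated (282 in DESeq2) and 91 in GSK-J4 against vehicle (253). In the latter, 57.3% of calls were higher with GSK-J4, and 46.2% with total-count scaling, which changed the median of all genes in that comparison by -0.0183, the largest change it made in any comparison. Depth limits GLI1, at 16.3 to 71.6 normalized counts, and HHIP was tested only in GSK-J4 against unstimulated, where it was not called (adjusted p = 0.994).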
